A study of Mus musculus with 28 samples.

Results

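The immediate early and acute stress genes described here are 32 genes of 18194 measured by a probe set with a single gene symbol and were taken from a list of gene names. All 32 had such a probe set, and a gene with several is read in each cell from the brightest of them. The list was chosen with earlier results of these data known, so its shares beside those of all genes are no independent support. Each of 28 arrays held the amplified cDNA of 1 cell picked by shape as a Müller glial cell (MGC), the main glia of the retina, after papain dissociation. Of the rd1 arrays at 5 weeks, A5 and A6 were nearly identical (Pearson r of 0.989 between their log2 signals, where none of the other 377 pairs passed 0.764) and were averaged to the cell A5/A6, which leaves 27 cells. Adult wild-type (WT) C57/BL6 mice, labelled as over 25 weeks old, gave 5 cells, and C57/BL6 mice deleted for the rod gene rhodopsin (Rhod-ko) gave 5 cells at 8 weeks and 5 at 25 weeks. FVB mice with the rd1 mutation in the beta subunit of the rod phosphodiesterase gave 5 cells at P13 and 4 at 5 weeks, and congenic FVB mice with an intact Pde6b gene (FVB.129P2-Pde6b+Tyrc-ch/AntJ) gave 3 cells at P13. Both mutations strike rods, so the picked cells carry the allele but are not where the gene acts. The adult WT cells had been profiled for an earlier study, so the genotype and the occasion of profiling cannot be told apart in the comparisons with them, and rd1 at 5 weeks differs from adult WT in strain as well. By the labels, age also differs from that of adult WT in rd1 at 5 weeks and in Rhod-ko at 8 weeks. In those comparisons genotype and age cannot be told apart. The study's own text gives the adult WT cells a much younger minimum age than the labels do. An age match with Rhod-ko at 25 weeks is therefore not certain either.

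Values are MAS5 signals on a linear scale, and a gene counts as on where its signal reaches 2000. Condition medians were compared after every signal below 1000 was raised to 1000, and 2-fold is used as a rule of size. Where a median lies below that floor, the fold is a lower bound on the ratio of the medians, not on that of the means. The labels tie no cell to an animal, so a condition counts as 1 sample of several cells, conditions were not tested against each other, and all differences between them are descriptions.

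Cells keep the promoters of immediate early genes ready, so that these genes can be transcribed within minutes of a stimulus without new protein. Kinases such as ERK, p38 and PKA act on factors already bound there, chiefly SRF with its partners at CArG boxes and CREB at cAMP response elements. The first products are transcription factors (Fos, Jun, Egr1) and proteins that switch the response off again (Dusp1, Zfp36, Btg2), and enzymatic dissociation of a tissue is itself known to induce many of them. In Müller glia, ERK signalling and Fos are known to respond to retinal injury.

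The promoters of 5 genes whose signals set the cells apart are shown because the letters known as sites of CREB and SRF can be looked for in them. RefSeq promoter sequences (GRCm38.p6) were found for 26 of the 32 genes. The 250 bases before the start of transcription are printed on the strand of the gene, with the cAMP response element TGACGTCA, its first 5 bases TGACG (the short CRE site), read on either strand, and the CArG box in capitals. The windows are chr12:85473640-85473889 (plus strand) for Fos, chr1:191183334-191183583 (minus) for Atf3, chr17:26508473-26508722 (minus) for Dusp1, chr1:134079156-134079405 (minus) for Btg2 and chr7:28379229-28379478 (minus) for Zfp36.
Fos: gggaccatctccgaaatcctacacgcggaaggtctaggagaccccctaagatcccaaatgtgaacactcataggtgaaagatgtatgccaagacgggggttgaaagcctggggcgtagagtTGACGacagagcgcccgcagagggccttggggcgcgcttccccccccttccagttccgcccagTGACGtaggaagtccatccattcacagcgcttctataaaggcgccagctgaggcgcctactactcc
Atf3: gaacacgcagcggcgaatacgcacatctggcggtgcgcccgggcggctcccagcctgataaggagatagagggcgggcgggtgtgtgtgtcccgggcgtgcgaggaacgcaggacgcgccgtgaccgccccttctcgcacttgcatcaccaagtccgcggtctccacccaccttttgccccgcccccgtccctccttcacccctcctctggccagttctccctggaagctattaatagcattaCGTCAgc
Dusp1: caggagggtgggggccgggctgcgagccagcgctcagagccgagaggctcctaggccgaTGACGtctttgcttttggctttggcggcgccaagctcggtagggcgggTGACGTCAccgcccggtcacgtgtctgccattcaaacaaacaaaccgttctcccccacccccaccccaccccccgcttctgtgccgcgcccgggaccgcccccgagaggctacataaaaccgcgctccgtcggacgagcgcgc
Btg2: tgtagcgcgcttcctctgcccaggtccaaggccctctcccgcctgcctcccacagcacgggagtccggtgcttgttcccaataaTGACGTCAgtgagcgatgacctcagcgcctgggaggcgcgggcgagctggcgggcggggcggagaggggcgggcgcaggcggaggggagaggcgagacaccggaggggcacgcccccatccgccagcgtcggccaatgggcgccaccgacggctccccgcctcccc
Zfp36: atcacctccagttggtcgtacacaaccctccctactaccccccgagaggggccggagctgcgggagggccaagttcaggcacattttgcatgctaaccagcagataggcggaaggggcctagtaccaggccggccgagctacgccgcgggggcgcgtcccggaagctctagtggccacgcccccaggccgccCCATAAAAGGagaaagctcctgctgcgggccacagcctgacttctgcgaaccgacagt

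Dusp1 held the full cAMP response element 143 to 136 bases before its start and Btg2 166 to 159 bases before its start. Fos held short CRE sites 129 and 66 bases before the start, and Zfp36 a CArG box 58 bases before it. Of the 26 windows, 3 held the full element (Dusp1, Btg2 and Maff), against 1.769% of the 27025 genes with a promoter in the table. The short site, which the full element contains on both strands, was present in 16 of 26 (61.54%), against 19.79% of genes. The AP-1 site TGANTCA, the target of Fos and Jun proteins, was in 1 of 26 (Klf9) against 7.819%, and the CArG box in 2 (Egr2 and Zfp36) against 1.624%, each searched on both strands. These are matches of letters in a short window and not measured binding.

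The cells differed widely in how many of the 32 genes were on, from 3 to 22, and the highest numbers were in Rhod-ko cells at 25 weeks. The number was 8, 8, 5, 6 and 5 in the adult WT cells MG1, MG16, MG22, MG15 and MG3 (median 6). In the Rhod-ko cells at 8 weeks it was 3, 3, 4, 4 and 7 for cells 2, 1, 3, 7 and 8 (median 4), and at 25 weeks it was 22, 8, 19, 17 and 6 for cells A1 to A5 (median 17). The 25 week condition thus held the 3 highest counts of all 27 cells as well as 2 within the adult WT range. In congenic FVB it was 11, 11 and 12 for cells A3, A4 and A5 (median 11), and the rd1 cells B4, A4, A1, B3 and B1 at P13 had 13, 9, 12, 15 and 12 (median 12). The rd1 cells A1, A5/A6, B1 and A8 at 5 weeks had 7, 5, 7 and 7 (median 7). Of all genes, 11.2%, 14.3%, 12.1%, 13.4% and 10.2% were on in the adult WT cells, and between 10.2% and 17.6% in any of the 27 cells. In Rhod-ko cells A1, A3 and A4 at 25 weeks the background was 16.9%, 16.6% and 14.7%, against 68.8%, 59.4% and 53.1% of the 32 genes. In Rhod-ko cells 2 and 1 at 8 weeks the share of the 32 genes, 9.38% in each, lay under the background of 13.0% and 10.8%.

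**Figure D1:**
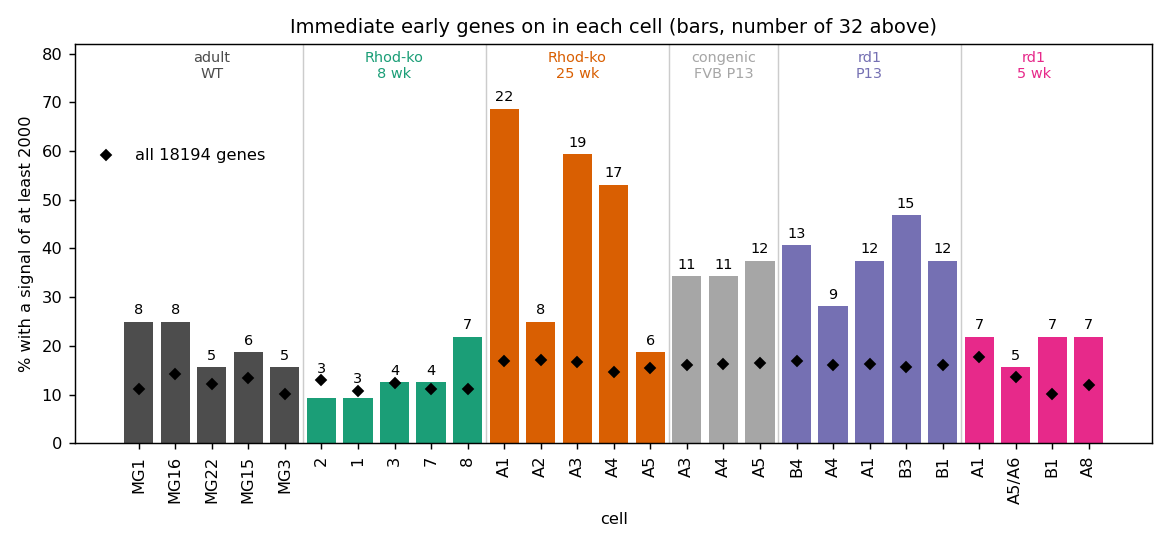
Share of the 32 immediate early genes that reached a signal of 2000, shown for each of 27 cells (bars, coloured by condition, with the number of genes above each bar) and the share of all 18194 genes (black diamonds). Bars of 22, 19 and 17 genes stand out among the Rhod-ko cells at 25 weeks, while the bars of Rhod-ko cells at 8 weeks, cell 8 apart, lie close to the diamonds.

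To ask which cells had many early genes on together, 10 genes, called first-wave here, were followed: Fos, Fosb, Jun, Junb, Egr1, Ier2, Atf3, Dusp1, Zfp36 and Btg2. They were chosen with earlier results of these data known, so counts of them describe the cells and are no independent support. Other early genes of the list, such as Egr2, Egr3, Nr4a1 and Ier3, are not among them. No cell had all 32 genes on, and the highest count was 22. Rhod-ko cells A1 and A3 at 25 weeks had all 10 on and cell A4 had 9, all but Atf3. Thus 3 of 5 cells of that condition (exact 95% binomial interval 14.7% to 94.7%, for counting error only) had 8 or more on, and no cell of another condition did. Cells A2 and A5 had 3 and 4 on. In a condition of 5 cells a count of 0 allows a share of up to 52.2%, in one of 4 cells 60.2% and in one of 3 cells 70.8%. Between 3 and 7 were on in 12 cells, and 0 to 2 in the other 12, among them all 5 Rhod-ko cells at 8 weeks (interval 47.8% to 100%). The cell nearest below the limit was rd1 cell B4 at P13 with 7, and 10 cells lay at 2 or 3 genes, so the lower limit separates similar cells. At a threshold of 1000, rd1 cells B4 and B3 at P13 also reached 8 and 9.

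**Figure D2:**
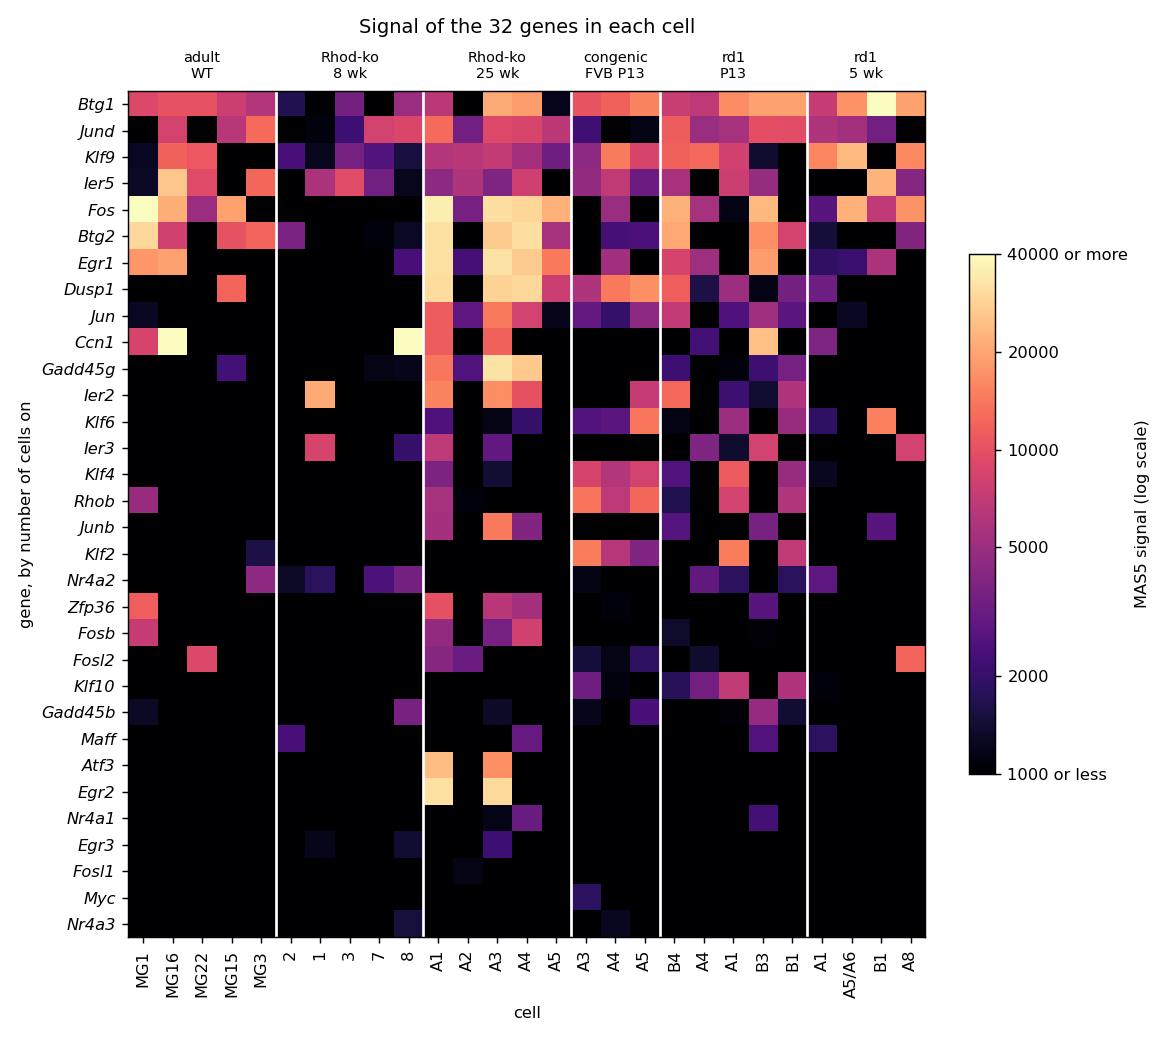
Signal of each of the 32 genes (rows, ordered by the number of cells in which they were on) in each of 27 cells (columns, grouped by condition), on a log colour scale from 1000 or less (black) to 40000 or more (pale). Rhod-ko cells A1, A3 and A4 at 25 weeks are above 2000 together for Fos, Btg2, Egr1, Dusp1, Jun, Gadd45g, Ier2, Junb, Zfp36 and Fosb and dark for Klf2 and Nr4a2, the 3 congenic FVB cells and rd1 cells A1 and B1 at P13 share Klf2, Klf4, Klf6 and Rhob, and the Rhod-ko cells at 8 weeks are mostly dark.

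Fos, the partner that completes the AP-1 dimer with a Jun protein, was on in 17 cells. Its signal was 90168.5, 21689, 5009.5, 19402 and 374 in adult WT cells MG1, MG16, MG22, MG15 and MG3. It was 56.5, 79.9, 103, 51.9 and 38.5 in Rhod-ko cells 2, 1, 3, 7 and 8 at 8 weeks, and 35461, 3587, 31480.2, 29154 and 22083 in cells A1 to A5 at 25 weeks. The 8 week cells all lay below every adult WT cell, and the 25 week cells were all on with A2 the lowest. In A1, A3 and A4 Fos ranked 28, 29 and 49 among the genes of the cell, and in A2 it ranked 1997. Congenic FVB cells A3, A4 and A5 gave 563, 4918 and 12.3. The rd1 cells B4, A4, A1, B3 and B1 gave 22029.5, 5480.3, 1141, 23174 and 611 at P13, and A1, A5/A6, B1 and A8 gave 2670.5, 21868, 6839 and 17570.5 at 5 weeks. Fos was therefore on in all 4 rd1 cells at 5 weeks and in 3 of 5 at P13, where the congenic cells overlapped with the lower values.

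The other Fos proteins were on in few cells. Fosb, which makes AP-1 dimers that can persist as a truncated form, was on in 4 cells: adult WT MG1 at 7295 and Rhod-ko A1, A3 and A4 at 25 weeks at 4662, 3580.0 and 8046. Every other cell had a Fosb signal of at most 1335. Fosl2, a slower Fos relative, was on in a different set, in adult WT MG22 (8987), Rhod-ko A1 and A2 at 25 weeks (4131 and 3259) and rd1 A8 at 5 weeks (11977). Fosl1 was on in 0 of 27 cells, which allows a share of up to 12.8% (exact binomial limit), with a highest signal of 1169.

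Jun, which binds DNA alone or with Fos, was on in 10 cells and in 0 of the adult WT cells, whose signals were 1268, 811, 145, 99.6 and 447 (MG1, MG16, MG22, MG15 and MG3). The Rhod-ko cells at 25 weeks gave 11373, 2860.0, 14184, 8111 and 1190.5 (A1 to A5), so that 4 of 5 were on and A5 fell within the adult WT range. At 8 weeks the signals lay between 270.2 and 486. Congenic FVB cells A3, A4 and A5 gave 3029, 1989 and 4432, rd1 cells B4, A4, A1, B3 and B1 at P13 gave 7017, 14.8, 2491, 5105 and 2764, and rd1 cells at 5 weeks lay between 45.8 and 1269.9. All P13 cells but rd1 A4 thus lay above the adult WT range.

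Junb, an AP-1 subunit that can oppose Jun, was on in Rhod-ko A1, A3 and A4 at 25 weeks (5411, 14332 and 3944), in rd1 B4 and B3 at P13 (2628 and 3613) and in rd1 B1 at 5 weeks (2731). It was at most 965 in the remaining cells. Jund, the Jun family member that most cells express without a stimulus, was on in 20 cells and in all 5 Rhod-ko cells at 25 weeks (3407 to 12788). Fos was on together with Jun or Junb in 7 cells and without either in 10, including the 4 adult WT cells with Fos on. Jun was on without Fos in 4 cells, congenic FVB A3 and A5 and rd1 A1 and B1 at P13.

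Egr1, a zinc finger factor driven by ERK and SRF, was on in 14 cells. Adult WT cells MG1, MG16, MG22, MG15 and MG3 gave 17913.5, 19403, 219.5, 218 and 641, which falls into a high pair and 3 cells below 1000. Rhod-ko cells A1 to A5 at 25 weeks gave 32109, 2303, 32419.5, 27097 and 14356.5, all on, with A2 again the lowest. At 8 weeks 1 of 5 cells was on, cell 8 at 2321, the only one of 27 cells with Egr1 on and Fos off. At P13 it was 36.7, 5246 and 29 in congenic FVB cells A3, A4 and A5 and 8533, 5152, 215, 18827 and 108 in rd1 cells B4, A4, A1, B3 and B1. The rd1 cells A1, A5/A6, B1 and A8 at 5 weeks gave 1888, 2057, 5732 and 225, so that 2 of them lay close to the threshold. Fos and Egr1 were on together in 13 cells. Their Spearman rho over the 27 cells was 0.81, with signals below 1000 raised to 1000.

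Egr2 and Atf3 were strong in 2 cells and low elsewhere. Egr2, a relative of Egr1, had signals of 31804.5 and 30178 in Rhod-ko A1 and A3 at 25 weeks and at most 922.5 in the other cells. Atf3, a stress-induced factor of the integrated stress response that damps inflammatory genes, had 24229.7 and 16856 in the same A1 and A3 and at most 588 in the others. Cell A4, with 9 first-wave genes on, had 123 for Egr2 and 108 for Atf3. Egr3 was on only in A3 (2148.5). Of the orphan nuclear receptors, Nr4a1 was on in Rhod-ko A4 at 25 weeks (3196) and rd1 B3 at P13 (2263), and Nr4a3 in 0 cells (highest 1503). Nr4a2 was on in 5 cells, none of them at 25 weeks: adult WT MG3 (4447), Rhod-ko 7 and 8 at 8 weeks (2449 and 3505), rd1 A4 at P13 (2949.5) and rd1 A1 at 5 weeks (2836.5). Myc, the growth regulator, was on in 0 cells, with 1836 in congenic FVB A3 as its highest value.

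Dusp1, the phosphatase that inactivates p38, JNK and ERK, was on in 12 cells. In adult WT it was on in 1 of 5 cells, at 506, 321, 241, 12047 and 146 (MG1, MG16, MG22, MG15 and MG3). Rhod-ko cells A1 to A5 at 25 weeks gave 30476, 117, 28604, 29635 and 7735.5, and Rhod-ko cells at 8 weeks gave 45.6 to 702. The 25 week cells A1, A3 and A4 lay close together, while A2 was below the adult WT range. Dusp1 was on in congenic FVB cells A3 (5898), A4 (14182) and A5 (16860.3), and rd1 cells B4, A4, A1, B3 and B1 had 11551, 1596, 5039.8, 1146 and 3534. At 5 weeks rd1 A1 gave 3352 and the other 3 cells at most 164. Dusp1 was thus on in all 3 congenic FVB cells, of which Fos was on in 1.

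Btg2, an antiproliferative gene and target of p53, was on in 15 cells. It was 29807, 8055, 137, 10211 and 12217.5 in adult WT cells MG1, MG16, MG22, MG15 and MG3, and 32137, 75.7, 26796, 31681 and 5524 in Rhod-ko cells A1 to A5 at 25 weeks. At 8 weeks cells 2, 1, 3, 7 and 8 gave 3742, 61.6, 93.5, 1075 and 1292, so 1 of 5 was on. Adult WT MG22 and Rhod-ko A2 lay far below the rest of their groups. In congenic FVB cells Btg2 lay between 731 and 2419, in rd1 cells at P13 between 179.6 and 20323, and in rd1 cells at 5 weeks between 59.2 and 3932. Zfp36, which binds and destabilizes mRNAs of cytokines, was on in the same 4 cells as Fosb, at 11422 in adult WT MG1 and 9928, 6549 and 5398 in Rhod-ko A1, A3 and A4 at 25 weeks, and also in rd1 B3 at P13 (2738). All of Fos, Jun, Junb, Egr1, Dusp1, Btg2 and Zfp36 were on together in 3 cells, Rhod-ko A1, A3 and A4 at 25 weeks.

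Ier2, an early gene of uncertain molecular role, was on in 8 cells of 4 conditions. These were Rhod-ko A1, A3 and A4 at 25 weeks (15566.5, 16679 and 10110.1), a single Rhod-ko cell at 8 weeks, cell 1 (20649.9), congenic FVB A5 (7244.5) and rd1 B4, A1 and B1 at P13 (12594.3, 2128.7 and 5973.7). It was at most 207 in adult WT and 577.7 in rd1 at 5 weeks. Gadd45g, a stress sensor that activates p38 and JNK through MTK1, was 14159, 2518, 32463.5, 26689.7 and 63.8 in Rhod-ko cells A1 to A5 at 25 weeks, against 66.8 to 2214 in adult WT. Gadd45b was on in 3 scattered cells, Rhod-ko 8 at 8 weeks (3636), congenic FVB A5 (2315) and rd1 B3 at P13 (4733). Ccn1, a matricellular protein and target of YAP and SRF, was on in 8 cells of 5 conditions and reached 74743 in Rhod-ko cell 8 at 8 weeks and 46358 in adult WT MG16. Ier3 was on in 7 cells, from 2010.1 in Rhod-ko 8 at 8 weeks to 8515 in Rhod-ko 1 of the same age, and Maff, a small Maf factor, in 3 cells (2333 to 3092). Ccn1 and Ier3 were both on in 5 cells, Rhod-ko A1 and A3 at 25 weeks with 10 first-wave genes on, rd1 B3 and A4 at P13 with 6 and 2, and Rhod-ko cell 8 at 8 weeks with 1.

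Btg1, a relative of Btg2 common in resting cells, was on in 22 cells, the most of the 32 genes. Adult WT cells gave 8993, 10179.9, 10279, 7521 and 6219.6 (MG1, MG16, MG22, MG15 and MG3), a narrow range beside that of Btg2. Rhod-ko cells 2, 1, 3, 7 and 8 at 8 weeks gave 1684, 523.5, 3508, 776 and 4951, all below the lowest adult WT cell. At 25 weeks the range widened to 312 to 20900.1, and rd1 B1 at 5 weeks had the highest signal, 82837. Ier5, a coactivator of heat shock factor HSF1, was on in 18 cells, but its 3 probe sets differed: they were on in 16, 0 and 3 cells, so its group differences depend on which is read.

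**Figure D3:**
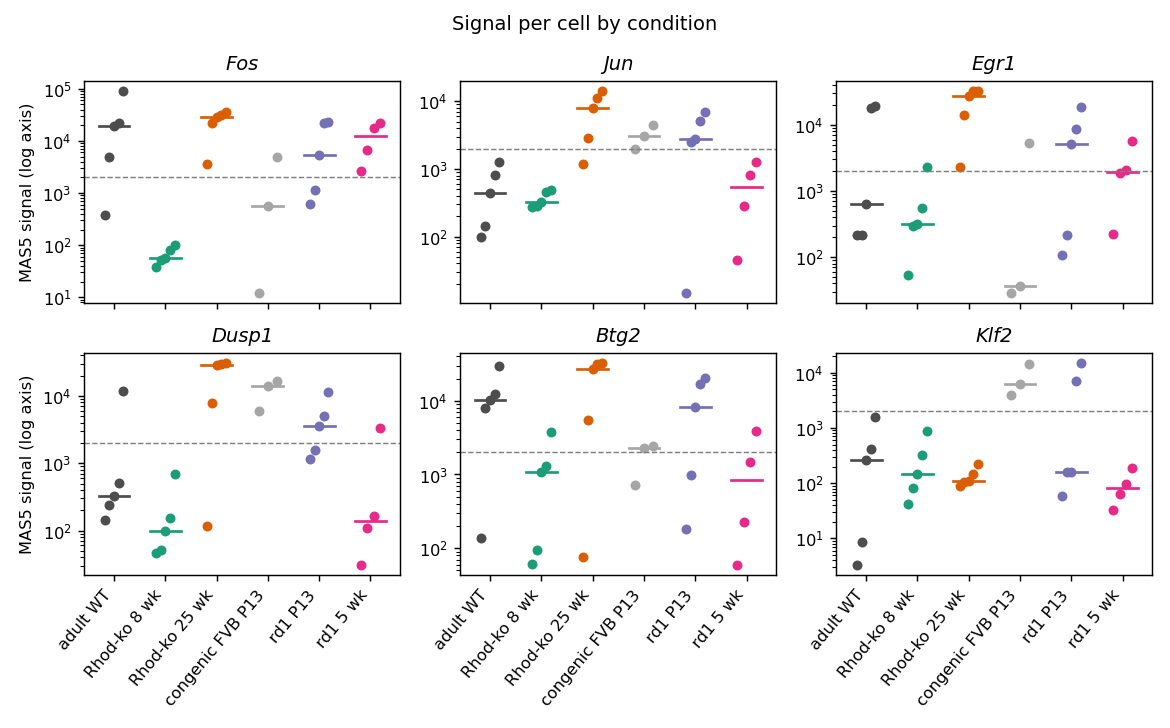
Signal of Fos, Jun, Egr1, Dusp1, Btg2 and Klf2 in each cell by condition, on log axes. Points are cells sorted by value within a condition, short lines are condition medians, and the dashed line marks the threshold of 2000. Fos lies near or below 100 in all Rhod-ko cells at 8 weeks, and Klf2 is above the line only in the 3 congenic FVB cells and 2 rd1 cells at P13.

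The Krüppel-like factors, zinc finger regulators induced early in many cells, split along another line. Klf2, which shear stress induces in endothelium, was on in 5 cells: congenic FVB A3, A4 and A5 (14635, 6286 and 3917.5) and rd1 A1 and B1 at P13 (14765 and 6969). It was at most 1596 in the other 22 cells. The same 5 cells, and no other, had Klf2, Klf4, Klf6 and the small GTPase gene Rhob all on, with Klf4 between 4856 and 11144 and Rhob between 6134 and 13809. In the other 22 cells Klf4 was on in 2, Klf6 in 3 and Rhob in 2. Klf10, a target of TGF-beta, was on in 4 P13 cells (3345 to 6911), of which 3 are among these 5. Klf9, which glucocorticoid and thyroid hormone induce, was on in 19 cells of all 6 conditions. Its 7 probe sets were on in 2, 7, 7, 8, 1, 0 and 14 cells, so no single one gives that count. The probe sets of Klf6 differed: they were on in 0, 2, 5, 5 and 2 cells, so its count depends on which is read.

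Those 5 cells also stood apart in cell type markers. They had 6 or 7 of 9 vascular markers on, with a summed signal of 70097.1 to 113772, against 0 to 3 on and 1989.9 to 61867.7 in the other 22 cells. Cldn5, a tight junction protein of endothelium, was 23455 to 29446 in them and at most 3095 elsewhere, and the endothelial genes Tek, Cdh5, Pecam1 and Eng were on in all 5 and in 0 of the other cells. Kdr and Flt1 were on in 3 and 5 of the 5, but also in 18 and 6 of the others. Pdgfrb and Rgs5, which mark mural cells, were on in 0 of the 5. They had 3 to 8 of 19 MGC markers on, against 14 to 19 in the others, so the label MGC is not borne out by the markers in these 5 cells. In them Dusp1 was on in 5, Jun in 4 and Fos in 1, and in the other 22 cells Dusp1 was on in 7, Jun in 6 and Fos in 16. The part of these markers in the Klf and Rhob results was not tested.

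**Figure D4:**
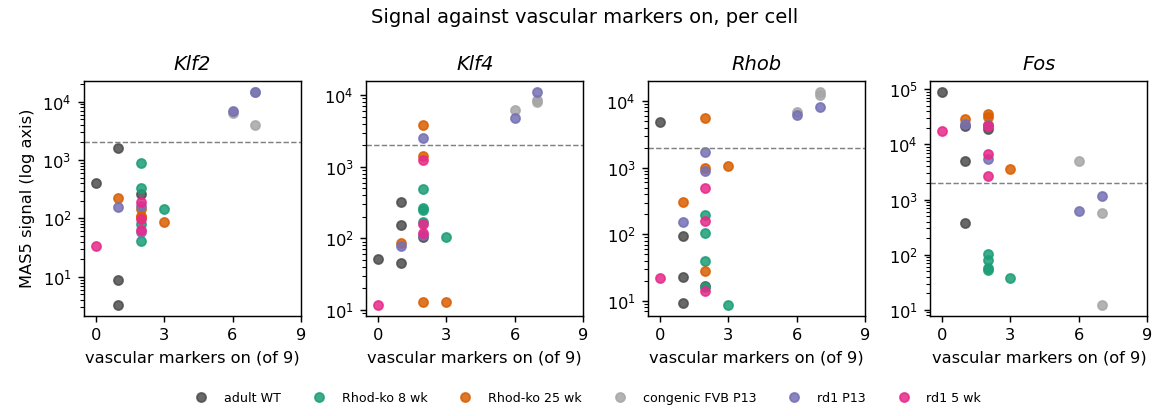
Signal of Klf2, Klf4, Rhob and Fos in each of 27 cells (log axes) against the number of 9 vascular markers on in that cell, coloured by condition, with the threshold of 2000 as a dashed line. The 5 cells at 6 or 7 markers lie together above the line for Klf2, Klf4 and Rhob, and 1 of them does for Fos.

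At P13, rd1 cells were set against the congenic FVB cells. The median was at least 2-fold higher in rd1 for 7 of the 32 genes, against 4.79% of all genes, and at least 2-fold lower for 5, against 6.41%. Both medians lay under the floor, where no call can be made, for 37.5% of the 32 genes and 72.6% of all genes. The list and all genes thus differ in how many could be called, and the shares do not allow for this. The higher genes were Fos (at least 5.48-fold), Jund (8.26-fold), Egr1 (at least 5.15-fold), Btg2 (3.58-fold), Klf10 (3.09-fold), Ier2 (at least 2.13-fold) and Gadd45g (at least 2.13-fold). Jund, at 11312, 4899, 5537, 9824 and 9511 in rd1 cells B4, A4, A1, B3 and B1 against 2185, 130.4 and 1152 in congenic FVB A3, A4 and A5, was the one member whose cells did not overlap, against 0.638% of all genes. The lower genes were Rhob (7.29-fold), Klf2 (at least 6.29-fold), Dusp1 (4.01-fold), Klf4 (3.18-fold) and Klf6 (2.46-fold), and 0 members were lower without overlap, against 1.01%.

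All 3 congenic FVB cells and 2 of the 5 rd1 cells were the cells with 6 or 7 vascular markers, and rd1 cells B4, A4 and B3 had 1 or 2, so genotype and these markers moved together, and the part of the markers in the differences was not tested. Leaving out rd1 A1 and B1 sets rd1 cells with 1 or 2 vascular markers against congenic FVB cells with 6 or 7. Genotype and these markers cannot be told apart at all in that setting. Without rd1 A1 and B1, Ier2 and Klf10 fell under 2-fold (log2 difference 0.49 and 0.68), and the other 10 calls were kept. Ier3 (1.94), Junb (1.39) and Ccn1 (1.16) became higher by the rule, which gives 8 higher and 5 lower. Fos was at 4.46 in that setting, and Dusp1 and Klf4 went to -3.15 and -3.02. Single cells moved most of these values. The log2 difference of Fos, 2.45, fell to 1.31 without congenic FVB A3 or A5 and to 1.32 without rd1 B4 or B3, and was 3.46 without rd1 A1 or B1. Egr1, at 2.37, fell to 1.17 without congenic FVB A3 or A5, 1.18 without rd1 B4 or B3 and 1.55 without rd1 A4. Klf2, at -2.65, went to -1.25 without rd1 B4, A4 or B3 and to -3.26 without congenic FVB A5. Rhob went from -2.87 to -1.94 without rd1 A4 or B3, Dusp1 to -1.37 without congenic FVB A5, and Klf4 from -1.67 to -2.34 without rd1 A1 or B1. All 6 stayed past 2-fold. The log2 difference of Ier2, 1.09, turned to -0.34 without congenic FVB A3 or A4 fell to 0.79 without rd1 B4 or B1, and was 1.83 without rd1 A4 or B3. Klf10 fell to 0.92 and 0.84 without congenic FVB A4 and A5, and Btg2 to 0.32 without rd1 B4 or B3 and 0.84 without B1, and was 2.44 without congenic FVB A5. Klf6 went to -0.35 without rd1 B4, -0.25 without rd1 A4 or B3, and -2.46 and -2.41 without congenic FVB A3 and A4, and Gadd45g to 0.60 without B4 or B1 and 0.61 without B3. With 1 probe set per gene Klf6 was at -0.86. With a floor of 2000, Klf6 (-0.49), Klf10 (0.79), Ier2 (0.09) and Gadd45g (0.09) were under 2-fold. By the means of the log2 signals Ier2 (0.61), Klf10 (0.97) and Gadd45g (0.83) fell under 2-fold, and by the means of the linear signals Ier2 (0.72), Gadd45g (0.87) and Klf2 (-0.90) did. Rod markers, of which 5 to 10 of 13 were on in every P13 cell of either genotype (summed signal 52990.5 to 194730), were present on both sides of the comparison.

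In Rhod-ko at 25 weeks the median was at least 2-fold higher than in adult WT for 10 of the 32 genes, against 7.9% of all genes, and lower for 1, against 3.7%. Both medians lay under the floor, where no call can be made, for 53.1% of the 32 genes and 79.2% of all genes. The shares do not allow for this. The AP-1 genes Jun (at least 8.11-fold), Junb (at least 3.94-fold) and Fosb (at least 3.58-fold) were higher, and so was Egr1 (at least 27.1-fold). The feedback genes Dusp1 (at least 28.6-fold), Zfp36 (at least 5.40-fold) and Btg2 (2.62-fold) were higher too, as were Ier2 (at least 10.1-fold), Gadd45g (at least 14.2-fold) and Klf9 (4.84-fold). Means of the linear signals, which single bright cells weigh on, gave smaller ratios for several of them, since adult WT MG1 and MG16 were high for Egr1, MG15 for Dusp1 and MG1 for Zfp36. Egr1 had means of 21657 and 7679 (2.82-fold), Dusp1 19314 and 2652 (7.28-fold), Zfp36 4386 and 2340 (1.87-fold), Btg2 19243 and 12085 (1.59-fold), Fosb 3300.5 and 1594 (2.07-fold) and Klf9 5704 and 4981 (1.15-fold). The median of Fos, 29154 against 19402, was not 2-fold higher, and 4 of 5 adult WT cells had it on. Ier5 was 2.13-fold lower. For no member were the cells of the groups apart, while 0.418% of all genes were higher and 0.33% lower without overlap.

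Leaving out single cells kept 6 of these 11 calls: Jun, Egr1, Ier2, Dusp1, Zfp36 and Gadd45g. The log2 difference of Egr1, 4.76, fell to 2.68 without adult WT MG22, MG15 or MG3. Ier2 fell from 3.34 to 1.67 without Rhod-ko A1 or A3 and 1.98 without A4, and Zfp36 from 2.43 to 1.22 without A1 or A3 and 1.36 without A4. Gadd45g fell from 3.82 to 2.58 without A3 or A4 and 3.04 without A1, Dusp1 from 4.84 to 3.89 without A1 or A4 and 3.92 without A3, and Jun from 3.02 to 2.27 without A1 or A3. By the means of the log2 signals Zfp36 (0.99), Fosb (0.84), Btg2 (0.47) and Ier5 (-0.47) were under 2-fold. Fosb fell to 0.92 without Rhod-ko A1 or A4 and 1.11 without A3, Junb to 0.99 without A1 or A3 and 1.22 without A4, and Btg2 to 0.25 without A1 or A4 and 0.37 without A3. Klf9 fell to 0.91 without adult WT MG1 and 0.74 without MG15 or MG3. Ier5 turned to 0.33 without adult WT MG16 or MG3 and 0.12 without MG22, and was -0.97 without Rhod-ko A1 and -0.87 without A3 or A5. The Rhod-ko cells at 25 weeks had 17 to 19 of 19 MGC markers on, 1 to 3 vascular, 0 or 1 of 16 microglial and 0 to 2 of 13 rod markers, and 14.7% to 17.2% of all genes on against 10.2% to 14.3% in adult WT.

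The gliosis marker Gfap (probe set used by the study) did not separate the cells with 8 or more first-wave genes on. It was 78.4, 40.1, 29918, 25.3 and 1803 in Rhod-ko cells A1 to A5 at 25 weeks, so that of A1, A3 and A4 it was on in A3 only. Over all 27 cells the number of the 32 genes on and the Gfap signal of this probe set had a Spearman rho of -0.06. With the brightest Gfap probe set of each cell the rho was -0.17.

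In Rhod-ko at 8 weeks 0 of the 32 genes were at least 2-fold higher than in adult WT, against 6.17% of all genes, and 5 were lower, against 5.12%. Fos was at least 19.4-fold lower, Btg2 9.50-fold, Btg1 5.34-fold, Jund 2.99-fold and Ier5 2.73-fold. Fos and Btg1 were lower without overlap, against 0.577% of all genes, and 0 members were higher without overlap, against 0.907%. Both medians lay under the floor for 24 of the 32 genes, as for 80.2% of all genes. The floor thereby sets the median difference over the 32 genes to 0, as over all genes, here and in the other comparisons with adult WT. At P13 it was 0 as well, with both medians under the floor for 37.5% of the 32 genes. Without such genes the median log2 difference in Rhod-ko at 8 weeks was -1.51 over the remaining 8 of the 32 genes and 0.26 over 3602 genes in all. It was 1.98 over 15 and 0.58 over 3783 in Rhod-ko at 25 weeks, -0.59 over 7 and 0.56 over 3562 in rd1 at 5 weeks, and 0.25 over 20 and -0.13 over 4988 in rd1 at P13. The genes that remain are those above the floor in at least 1 of the conditions compared, so these medians are given as a description. The Fos, Btg1 and Btg2 calls held without any single cell, with log2 differences of -4.36 to -3.30, -2.79 to -1.89 and -3.38 to -3.08. Fos, at -4.28, went to -3.30 without adult WT MG1 or MG16 and -3.38 without MG15. Jund fell to -0.23 without adult WT MG16 or MG3, -0.41 without MG15 and -0.62 without Rhod-ko 2 or 1, and Ier5 to -0.03 without MG16 or MG3 and -0.24 without MG22, with -2.19 without Rhod-ko 1 or 3. By the means of the log2 signals Jund (-0.40) and Ier5 (-0.83) were under 2-fold. Without MG16 the count of lower genes was 3.

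The arrays of Rhod-ko at 8 weeks differed from the others in measures of the amplified cDNA. The 100 strongest probe sets took 22.2% to 35.7% of the signal, against 13.4% to 24.6% in adult WT and 9.4% to 10.5% in Rhod-ko at 25 weeks, and the ratio of the 3′ to the 5′ Gapdh probe set was 3.95 to 18.2, against 0.554 to 4.06 and 1.17 to 2.05. Cell 7 had 6 of 16 microglial markers on (at most 1 in every other cell), and cells 7 and 8 had 8 and 7 of 13 rod markers on. Fos was at most 103 in all 5 cells. The part of these measures in the low values was not tested. Without cell 7 Fos was lower than in adult WT by the same rule.

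In rd1 at 5 weeks 2 genes were at least 2-fold higher than in adult WT, against 6.35% of all genes, and 2 were lower, against 4.25%, which is near the background for the list. Klf9 was 12.5-fold higher, at 15818, 23249.6, 581 and 16025 in cells A1, A5/A6, B1 and A8 against 327 to 11828 in adult WT. Btg1 was 2.02-fold higher, Btg2 at least 8.39-fold lower and Ier5 4.57-fold lower. No member was apart without overlap in either direction, against 0.346% of all genes each way. The log2 difference of Klf9, 3.65, fell to 2.11 without adult WT MG15 or MG3 and 2.28 without MG1. Btg1 fell under 2-fold (log2 difference 0.92 to 0.93) without adult WT MG15 or MG3 or rd1 B1 or A8, and Ier5 went from -2.19 to -0.78 without MG16 or MG3, -0.98 without MG22, -1.17 without rd1 A1 or A5/A6 and -3.22 without rd1 B1 or A8. By the means of the log2 signals Ier5 was at -0.75. Against congenic FVB, which shares the strain but not the age and holds the cells with vascular markers, 3 of the 4 calls fell under 2-fold, Klf9 (0.90), Btg1 (0.61) and Btg2 (-0.92). The 3 comparisons with adult WT share their 5 control cells and are not independent of one another.

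Pairs of the 25 genes that were on in 3 to 24 cells were compared over the 27 cells, which share the amplification method and the array scaling, so the values describe likeness and carry no test. Signals below the floor of 1000 were raised to it before ranking, so the cells under the floor are tied for a gene. The median Spearman rho of the 300 pairs was 0.14, and 0.08 once condition medians were taken off, with 46 pairs above 0.5 and 87 below 0. Fosb and Zfp36 (0.84), Fos and Egr1 (0.81), Klf4 and Rhob (0.81), Klf4 and Klf6 (0.81) and Fosb and Junb (0.78) were among the most alike, and Jun and Dusp1 had 0.70. With condition medians taken off, these were 0.70, 0.70, 0.77, 0.46, 0.60 and 0.34 in the same order. Fosb and Zfp36 were both on in 4 cells and Fosb and Junb in 3. The rho of these 2 pairs thus rests on few cells above the floor and is no graded likeness over all 27. Klf4 was on together with Rhob in 6 cells and with Klf6 in 6, and Fos with Egr1 in 13. Fos ran against Nr4a2 (-0.65, and -0.43 with condition medians taken off) and Klf2 (-0.47 and -0.41).

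Further early genes, taken from a separate list of 38, shared the pattern in part. This list was also chosen with earlier results of these data known. In Rhod-ko at 25 weeks 6 of the 38 were at least 2-fold higher (Per1, Per2, Socs3, Mcl1, Nfkbiz and Irf1), which is 15.8% against 7.9% of all genes. Hes1 alone was lower (2.63% against 3.7%). Only 11 of the 38 had a median at or above the floor in either condition and could be called there, against 3783 of 18194 genes. The shares do not allow for this. Socs3, the inhibitor of cytokine signalling through STAT3, was 43245, 95.4, 29297, 9677.5 and 7777 in Rhod-ko cells A1 to A5 at 25 weeks. It was 35188 in adult WT MG1 and at most 1273 in the other 4 adult WT cells, and 11713 in rd1 B3 at P13, both of which had Fos and Zfp36 on. Mcl1, an antiapoptotic Bcl2 relative, was on in all 5 Rhod-ko cells at 8 weeks (4996.5 to 39029), where Fos was low. Hes1, a repressor in the Notch pathway, was on in all 5 adult WT cells (2457 to 36963) and lay below them in Rhod-ko at 8 weeks (109 to 2017) and rd1 at 5 weeks (29.3 to 1607). In Rhod-ko at 8 weeks 1 of the 38 was higher (2.63% against 6.17% of all genes) and 1 lower (2.63% against 5.12%), and in rd1 at 5 weeks 2 were higher (5.26% against 6.35%) and 1 lower (2.63% against 4.25%), all under the background. In rd1 at P13 1 was higher (2.63% against 4.79%) and 5 were lower (13.2% against 6.41%).

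Of 18 measured genes upstream of the response (kinases, SRF and CREB factors, STAT3 and NF-kappaB), 4 were higher (22.2% against 7.9% of all genes) and 1 lower (5.56% against 3.7%) in Rhod-ko at 25 weeks. In rd1 at 5 weeks 4 were higher (22.2% against 6.35%) and 1 lower (5.56% against 4.25%), in Rhod-ko at 8 weeks 2 higher (11.1% against 6.17%) and 1 lower (5.56% against 5.12%), and in rd1 at P13 0 higher (against 4.79%) and 2 lower (11.1% against 6.41%). In a list of this size 1 gene is 5.56%. Only genes with a median at or above the floor in at least 1 of the conditions compared could be called. In Rhod-ko at 25 weeks these were 9 of the 18, against 3783 of all 18194 genes. They were 5 of the 18 in Rhod-ko at 8 weeks, 5 in rd1 at 5 weeks and 12 in rd1 at P13. The shares do not allow for this. Stat3 was at least 3.85-fold higher in Rhod-ko at 25 weeks and at least 4.88-fold in rd1 at 5 weeks. Among 11 heat shock genes, Hspa8 and Hsp90aa1 were on in all 27 cells. The inducible Hspa1b was on in 1 cell, rd1 A4 at P13 (12898.5), which had 2 first-wave genes on. Dnajb1, a partner of Hsp70 that heat shock induces, was 69.4, 4499.5, 28986, 30279 and 1646 in Rhod-ko cells A1 to A5 at 25 weeks, so it was high in A3 and A4 and low in A1. Hspb1 was on in the 3 congenic FVB cells only (5394, 4709 and 6322.5) and was at most 107 in rd1 A1 and B1, the other cells with 6 or 7 vascular markers. Of these 11 genes, of which 1 is 9.09% of the list, 1 was higher (against 4.79% of all genes) and 3 lower (27.3% against 6.41%) in rd1 at P13. In rd1 at 5 weeks 2 were higher (18.2% against 6.35%) and 1 lower (against 4.25%), in Rhod-ko at 8 weeks 3 higher (27.3% against 6.17%) and 2 lower (18.2% against 5.12%), and at 25 weeks 1 higher (against 7.9%) and 1 lower (against 3.7%). Of the 11 heat shock genes, 6 could be called in Rhod-ko at either age, 5 in rd1 at 5 weeks and 9 in rd1 at P13. These shares do not allow for this either.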

How the data were processed

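The authors dissociated retinas with papain, picked single cells with a micropipette, reverse transcribed RNA from an oligo dT primer, and amplified the cDNA by 35 PCR cycles. Oligo dT priming favours 3′ ends, and rare transcripts of a single cell can be lost, so a low signal does not show that a gene was silent. As deposited, the files hold linear MAS 5.0 signal intensities, with the 2% trimmed mean of every array set to 500 by the authors. Each condition pooled cells with no animal named. Of 45101 probe sets, 34958 with 1 symbol in the array annotation were used (18194 genes), with the highest probe set per cell. The number of arrays and cells limits the precision.

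The 32 genes and the gene lists were chosen with earlier results of these data known. All 32 were named, and of other lists the 5 genes with the highest median, the 3 largest differences per comparison, and the 6 genes most like the count of genes on. Alternatives were thresholds of 1000 and 5000, the 2000 strongest genes, 1 probe set per gene, the same 90th percentile, quantile normalization, floors of 500 and 2000, means of log2 and of linear signals (the latter added after seeing the data), arrays A5 and A6 separate, and leaving out cells. Steps were tested on simulated data. Promoters came from RefSeq (GRCm38.p6). Scripts ran under Python 3.11.15 with SciPy 1.17.1, NumPy 2.4.6, pandas 2.3.3 and matplotlib 3.10.9.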

Additional observations from a re-analysis of the deposited data

Results flagged for a closer look

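In 100 groups of 4 or 5 cells, 16 values stood far from the rest of their group by Dixon's ratio, taken on log2 signals or on counts of genes on. A group is 1 gene or count in 1 condition, tested at its highest and lowest value. A gene entered only in conditions where at least 1 cell had it on. Its limit is passed by chance in about 1 in 20 groups of normally distributed values. How often it is passed by chance for single cell values of this kind was not tested, so the number is not read as an excess. In adult WT these were Dusp1 in MG15 (12047), Zfp36 in MG1 (11422) and a low Btg2 in MG22 (137). In Rhod-ko at 8 weeks cell 8 had 7 of the 32 genes on and a Ccn1 signal of 74743, and cell 2 had a Maff signal of 2333. In Rhod-ko at 25 weeks cell A2 was low for Fos (3587) and Dusp1 (117), cell A5 was low for Ier5 (133), and cell A3 was high for Egr3 (2148.5). At P13 rd1 A4 was low for Jun (14.8) and rd1 B3 for Klf10 (7.6). In rd1 at 5 weeks A5/A6 was low in the number of genes on (5), B1 was high in first-wave genes on (3) and low for Klf9 (581), and A8 was low for Jund (227.5). No cause was tested for any of these values.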

How the results depend on the processing

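No paired analysis was possible because the conditions compared share at most 1 cell name (A4 at P13), and nothing in the labels says that a name marks a shared animal or day. The number of cells with 8 or more first-wave genes on was 3 under each other threshold, scaling and probe set choice except the threshold of 1000, where it was 5. At 1000 the median number of genes on was 7 in Rhod-ko at 8 weeks, 15 in congenic FVB and 17 in rd1 at P13, and the first-wave median of rd1 at 5 weeks was 3. At 5000 it was 1, 7 and 8 in these conditions and 4.5 in rd1 at 5 weeks, with first-wave medians of 0 in Rhod-ko at 8 weeks, 2 in congenic FVB and 1 in rd1 at 5 weeks. By the 2000 strongest genes it was 9 in congenic FVB and 5.5 in rd1 at 5 weeks (first-wave 1.5). With 1 probe set per gene it was 10 and 5.5, 2 genes were higher in Rhod-ko at 8 weeks, 0 lower at 25 weeks and 1 lower in rd1 at 5 weeks. The congenic median was 12 at the same 90th percentile and 10 after quantile normalization. In Rhod-ko at 8 weeks 1 gene was higher under each of these scalings and 3 were lower after quantile normalization, which also gave 0 lower at 25 weeks and 1 higher in rd1 at 5 weeks. A floor of 500 gave 2 higher in Rhod-ko at 8 weeks, a floor of 2000 gave 4 higher in rd1 at P13, and group means gave 0 lower at 25 weeks. Means of the linear signals, an alternative chosen after seeing the data, gave 2 higher and 8 lower in Rhod-ko at 8 weeks, 2 lower at 25 weeks, and 4 higher and 6 lower in rd1 at 5 weeks. With congenic FVB as control 7 genes were lower in rd1 at 5 weeks.

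With 1 probe set, Ier5 turned to 1.38 (log2 difference) in Rhod-ko at 8 weeks and 1.74 in the older Rhod-ko. Without adult WT MG16, MG22 or MG3 it was 0.33, 0.12 and 0.33 at 25 weeks (range over cells left out -1.29 to 0.33), and Ier2 was -0.34 at P13 without congenic FVB A3 or A4 (range -0.34 to 1.83). Leaving out each cell moved the medians of genes on and of first-wave genes to 5.5 to 7 and 2 to 3 in adult WT, 3.5 to 4 and 0.5 to 1 in Rhod-ko at 8 weeks, 12.5 to 18 and 6.5 to 9.5 at 25 weeks, 11 to 11.5 and 3 to 4 in congenic FVB, 12 to 12.5 and 3.5 to 5 in rd1 at P13, and left 7 and 2 in rd1 at 5 weeks. Cells with 8 or more first-wave genes numbered 2 to 3. Higher and lower genes numbered 0 to 1 and 3 to 6 in Rhod-ko at 8 weeks, 7 to 13 and 0 to 2 at 25 weeks, 1 to 3 and 1 to 4 in rd1 at 5 weeks, and 5 to 7 and 4 to 7 at P13. Without MG15, 4 genes were lower in rd1 at 5 weeks and 2 at 25 weeks. The causes were not tested. One array per cell gives no estimate of measurement error.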

Other observations

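Of 6926 genes outside the list that were on in 3 to 24 cells, Rab9 (Spearman rho 0.76 over 27 cells), Txn1 (0.73), Syf2, Hpcal1 and Trak1 (0.71 each) and Ece1 (0.70) followed the number of immediate early genes on most closely. Txn1, the redox protein thioredoxin, was 8231 to 13201 in congenic FVB, 5353 to 9293 in rd1 at P13 and 144 to 8444.5 in Rhod-ko at 25 weeks, and at most 1377 in adult WT and 641 in Rhod-ko at 8 weeks. Rab9, a GTPase of late endosomes, was on in 4 Rhod-ko cells at 25 weeks, 2 congenic FVB cells, 4 rd1 cells at P13 and 1 at 5 weeks, and in 0 adult WT cells and 0 Rhod-ko cells at 8 weeks. The number of immediate early genes on also ran with the number of all genes on (rho 0.68) and against the share of signal in the 100 strongest probe sets (-0.62). These are descriptions over cells that share array scaling and amplification, chosen as the highest of many genes.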
